A study of Mus musculus with 9 samples.

Results

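The ribosome biogenesis and RNA polymerase I module is a set of 50 mouse genes whose proteins transcribe ribosomal DNA or build ribosomal subunits. Its members come from a list of gene symbols that was drawn up with earlier results of these data known, although the rule itself uses no measured value. Of these, 48 had an array probe set that carries their symbol alone, out of 19938 genes with such a probe set, while Npm3 and Noc2l had none and were not measured. Transcript levels were read on 9 Affymetrix whole-transcript arrays from dendritic cell (DC) progenitors, 3 arrays in each of 3 populations. All mice carried 1 allele of a Zbtb46-GFP reporter, which makes cells that transcribe Zbtb46, a transcription factor of classical DCs, fluoresce. Bone marrow from pelvis, tibia and femurs was sorted into common DC progenitors without the reporter signal (Zbtb46- CDPs), common DC progenitors with it (Zbtb46+ CDPs), and cells committed to the CD8 DC branch, now called cDC1 (Pre-CD8 DCs). No group received a treatment. Age, strain and sort gates are absent from the labels, and whether replicates were separate mice is not stated there, so p-values measure only the spread between arrays, which may be technical.

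Ribosomes are built in the nucleolus, where RNA polymerase I (Pol I) transcribes a long precursor that is cut and modified into most of the ribosomal RNAs. Small nucleolar ribonucleoproteins (snoRNPs) guide the modification, the small subunit processome folds and cuts the part that becomes the 40S subunit, and other factors assemble the 60S subunit. Demand for these factors is known to follow growth and proliferation, and the transcription factor Myc is a textbook activator of many of their genes.

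The labels were checked against marker genes. The summed linear signal of 8 cDC1 markers ran from 6996 to 7948 in Zbtb46- CDPs, from 11531 to 15267 in Zbtb46+ CDPs and from 23777 to 25509 in Pre-CD8 DCs. That of 5 CDP markers ran from 20668 to 21394, from 8868 to 13444 and from 6586 to 6883. Of these 5, Mpo (-5.83), Csf1r (-2.74) and Cx3cr1 (-1.06) fell at the second step, while Kit (0.90) and Flt3 (0.59) rose. Kit was also higher over the span, at 1.12 on the log2 scale. Replicate 1 of both CDP groups stood apart from the other 7 arrays. Xist, the RNA of the inactive X chromosome, measured 5.59 and 5.30 there against 11.85 to 12.29 elsewhere, and the sum of 9 neutrophil markers was 5452 and 18228 against 729 to 1801. The counts in all 4 comparisons are therefore also given without these 2 arrays. Zbtb46+ replicate 1 was also the highest of its group in the sum of 6 classical DC markers, at 11490 against 4637 and 4717. The sum of 7 immediate early genes, such as Fos and Jun, was 10363 there against 3855 and 3799. All member values are log2 of the deposited signal, listed in the order of replicates 1 to 3, and levels of different genes are not compared because probe sets differ in brightness. Since whole populations were measured, fewer cells of a type and less RNA per cell cannot be told apart.

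At the first step, from Zbtb46- to Zbtb46+ CDPs, the module was lower. Of 48 members, 44 fell and 0 rose (limma fit across all genes, adjusted p under 0.05), while 10.6% of all genes were called lower and 3.85% higher. At an unadjusted p under 0.05 the counts were 47 and 0. The median member difference was -0.91 on the log2 scale, against 0.04 for all genes, and the members ranged from -1.60 to -0.11. The largest falls were in Gnl3, the GTPase nucleostemin, and Tsr1, a 40S assembly factor. All 6 members that serve Pol I, all 8 snoRNP and modification factors and all 5 later 40S factors fell, as did 13 of 14 measured 60S factors, 10 of 13 processome factors and both nucleolar chaperones. In 46 of 48 members every Zbtb46+ array lay below every Zbtb46- array, an order that 17.4% of all genes showed, and the exceptions were Utp18 and Bop1. Leaving out each array in turn gave 35 to 46 members lower, where 6.73% and 16.4% of all genes were (without Zbtb46- replicate 3 and Zbtb46+ replicate 1), and 35 of the 44 were called in each of the 9 fits. The others were Polr1e, Ncl, Npm1, Rrp9, Ddx10, Nop16, Brix1, Nip7 and Rrp1b, all 9 of which lost their call without Zbtb46- CDP replicate 3. Without both arrays low in Xist, 46 members were lower, where 13.8% of all genes were. With only the 2 CDP groups fitted, 37 members were lower, as were 1388 of the 19938 genes. The calls of Polr1e, Ncl, Rrp9, Ddx10, Nop16, Brix1 and Rrp1b were lost in that fit.

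At the second step, from Zbtb46+ CDPs to Pre-CD8 DCs, the members stood somewhat higher and fewer passed the test. The median member difference was 0.35, against -0.03 for all genes, and 11 of 48 members rose while 0 fell. Among all genes 4.76% were called higher and 1.86% lower, and at an unadjusted p under 0.05 limma gave 28 members higher and 0 lower. The 11 were Polr1c, Fbl, Wdr43, Wdr75, Wdr3, Nop14, Nob1, Pes1, Gnl3, Rrs1 and Ebna1bp2, which lie in every role group except the nucleolar chaperones. In 23 members (47.9%) every Pre-CD8 array lay above every Zbtb46+ array, as in 12.6% of all genes. The count of calls depended on single arrays, and the share of all genes called higher moved the same way. It was 3 members without Pre-CD8 replicate 1 or replicate 3 (2.34% and 2.3% of all genes), 5 without Pre-CD8 replicate 2 (2.75%), 6 without Zbtb46+ replicate 2 (2.86%) and 23 without Zbtb46+ replicate 1 (9.05%). Of the 11 genes 2, Fbl and Wdr3, were called in each of the 9 fits that left out an array. Without both arrays low in Xist, 28 members rose, where 12.5% of all genes did.

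The difference between the steps was tested directly, as the second difference minus the first. Both steps share the Zbtb46+ arrays, so an error there moves them in opposite directions. Of 48 members, 36 had a higher difference at the second step and 0 a lower one, with a median of 1.32, while 6.26% of all genes were called higher and 1.36% lower (limma). At an unadjusted p under 0.05 it was 43 and 0. Those not called were Polr1e, Nolc1, Ncl, Npm1, Utp18, Utp15, Wdr36, Noc4l, Rrp9, Bop1, Nop16 and Rrp1b. Leaving out 1 array gave 22 members without Zbtb46+ replicate 2, where 2.7% of all genes were called higher, to 43 without Zbtb46+ replicate 1, where 11.6% were. Without both arrays low in Xist it was 43, where 12.4% of all genes were. Of the 36 members, 22 were called in each of the 9 fits that left out an array. In 23 members the 3 Zbtb46+ arrays were the lowest 3 of the 9, as in 5.88% of all genes.

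Over the whole span, Pre-CD8 DCs remained below Zbtb46- CDPs. Here 27 of 48 members were lower and 0 higher, with a median of -0.56, where 9.23% of all genes were lower and 6.43% higher (limma). At an unadjusted p under 0.05 it was 33 and 0. In 40 members (83.3%) every Pre-CD8 array lay below every Zbtb46- array, as in 19.2% of all genes. The exceptions were Polr1c, Polr1e, Utp18, Wdr3, Ddx10, Brix1, Ebna1bp2 and Nip7. Without both arrays low in Xist 31 members were lower, where 10.8% of all genes were. Of the 27 members, 20 were called lower in each of the 9 fits that left out an array. The others were Polr1b, Ddx21, Nop58, Tsr1, Gnl2, Nop2 and Rrp1b. The snoRNP and modification factors had 7 of 8 members lower over the span, the processome 6 of 13, the later 40S factors 3 of 5, the 60S factors 8 of 14, the Pol I group 3 of 6 and the chaperones 0 of 2.

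**Figure D1:**
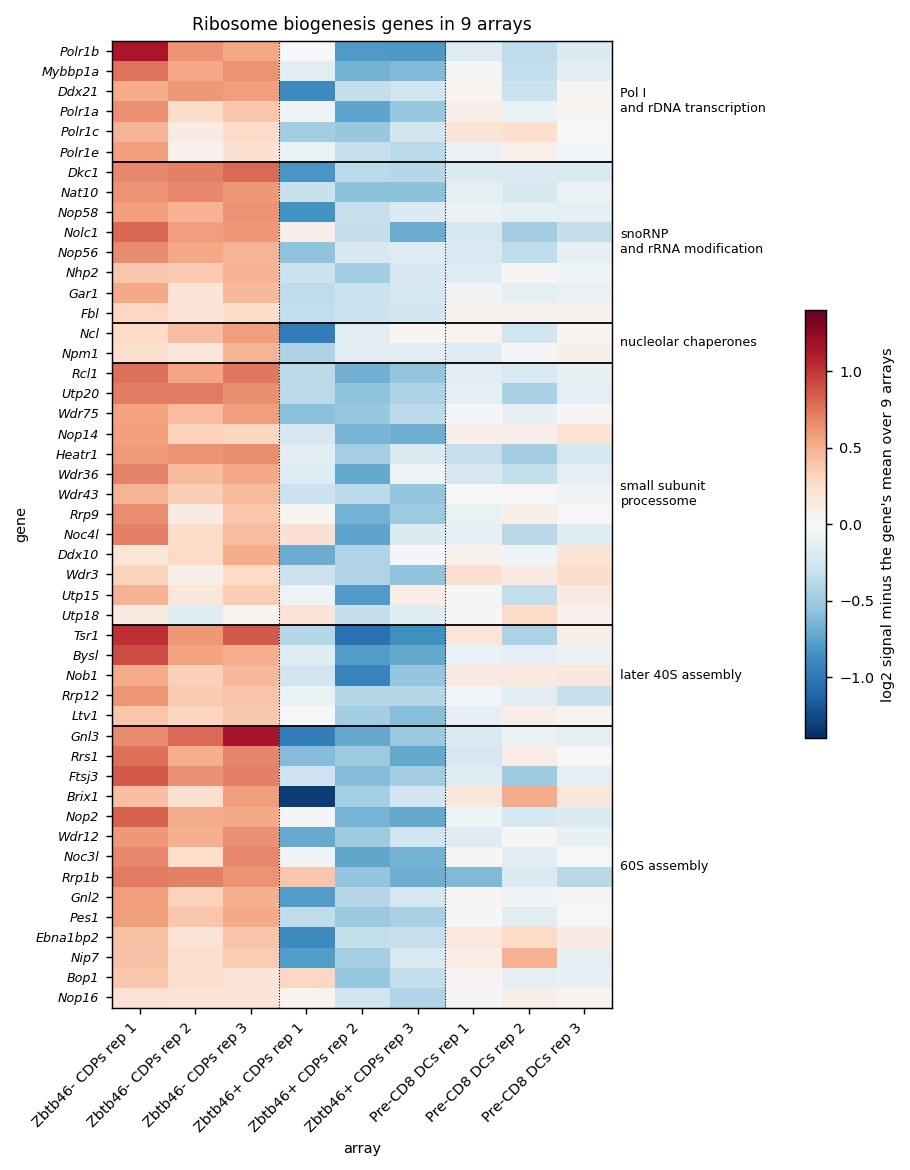
Log2 signal of the 48 measured members (rows, by role) in the 9 arrays (columns), each as the difference from the gene's own mean over the 9 arrays; red is above and blue below that mean. The 3 Zbtb46- CDP arrays are above the mean in nearly every row, and in Zbtb46+ CDPs replicate 1 differs from the other two in many rows, such as Brix1 and Rrp1b.

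**Figure D2:**
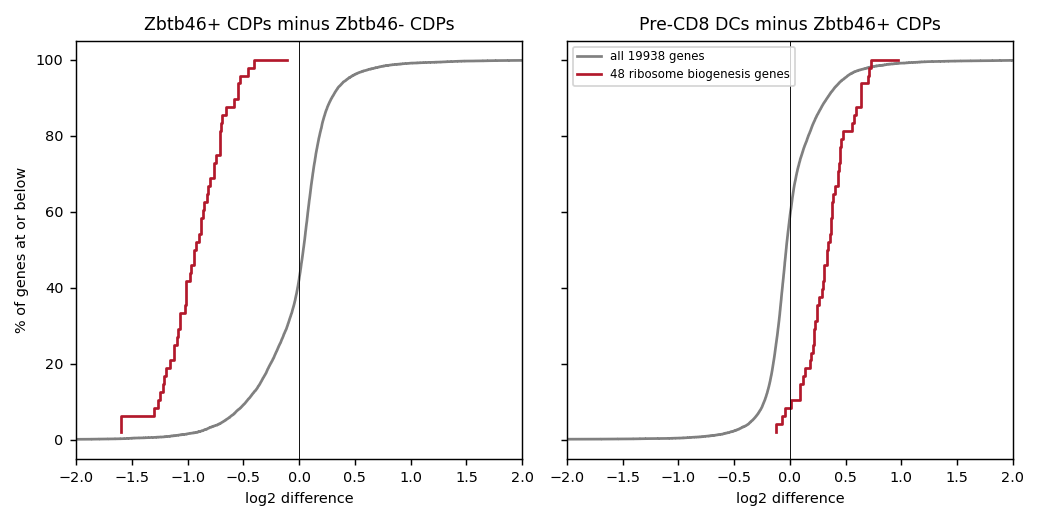
Cumulative share of genes (vertical axis, percent) at or below each log2 difference (horizontal axis, -2 to 2) for the 48 members (red) and all 19938 genes (grey), at the first step (left) and the second (right). The red line lies left of 0 throughout at the first step, with a median of -0.91, and mostly right of 0 at the second, with a median of 0.35.

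The members that serve Pol I fell together at the first step. Polr1b encodes the second largest subunit of the enzyme, part of its catalytic centre. It measured 9.93, 9.41 and 9.33 in Zbtb46- CDPs, 8.80, 8.0 and 7.98 in Zbtb46+ CDPs and 8.60, 8.43 and 8.60 in Pre-CD8 DCs, and replicate 1 was the highest array in each CDP group. The CDP groups did not overlap, while Zbtb46+ replicate 1 lay above all 3 Pre-CD8 arrays. Polr1b fell by 1.30 on the log2 scale (SE 0.23, adjusted p = 0.00573) and showed 0.29 (SE 0.23, adjusted p = 0.553) at the second step, and over the span it was lower by 2.02-fold. The gene of the largest subunit, Polr1a, fell by 0.86 on the log2 scale (SE 0.168, adjusted p = 0.00883). Polr1c, a subunit that Pol I shares with Pol III, measured 9.74, 9.38 and 9.53 in Zbtb46- CDPs, 8.78, 8.73 and 9.01 in Zbtb46+ CDPs and 9.44, 9.50 and 9.27 in Pre-CD8 DCs. It fell by 0.71 on the log2 scale (SE 0.116, adjusted p = 0.00404) and rose by 0.56 (SE 0.116, adjusted p = 0.0219) at the second step, with no overlap between neighbouring groups. The rise lost its call without Zbtb46+ replicate 2 or Pre-CD8 replicate 1 or 2. Over the span the difference of Polr1c was -0.15. The Pol I subunit gene Polr1e fell by 0.54 on the log2 scale (SE 0.134, adjusted p = 0.0256), a call that was lost without any of 4 arrays, Zbtb46- replicates 1 and 3 and Zbtb46+ replicates 2 and 3, with an adjusted p of up to 0.0828. Mybbp1a, a nucleolar regulator of ribosomal DNA transcription, fell by 1.12 and Ddx21, a nucleolar RNA helicase, by 1.07. Both were still lower in Pre-CD8 DCs, at -0.81 and -0.64. The span call of Ddx21 was lost after quantile normalization and in each fit that left out a Zbtb46- or Pre-CD8 array.

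The box C/D snoRNPs, which methylate ribosomal RNA, were represented by the methyltransferase gene Fbl (fibrillarin) and the core protein genes Nop56 and Nop58. Fbl measured 12.24, 12.15 and 12.21 in Zbtb46- CDPs, 11.61, 11.65 and 11.68 in Zbtb46+ CDPs and 12.02, 12.02 and 12.02 in Pre-CD8 DCs, and its 3 Pre-CD8 values were identical as deposited. It fell by 0.55 on the log2 scale (SE 0.0616, adjusted p = 0.000587) and rose by 0.37 (SE 0.0616, adjusted p = 0.00845) at the second step. A second probe set of Fbl gave -0.54 and 0.16 for the steps, and the second-step rise was not called with the mean of both probe sets or after quantile normalization. Nop56 measured 10.92, 10.79 and 10.73 in Zbtb46- CDPs, 9.69, 10.04 and 10.08 in Zbtb46+ CDPs and 10.04, 9.91 and 10.12 in Pre-CD8 DCs. It fell by 0.88 on the log2 scale (SE 0.114, adjusted p = 0.00129), while its second difference of 0.09 turned to -0.01 after quantile normalization. Nop58 fell by 1.02 and was lower over the span by 1.61-fold.

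Dkc1 encodes dyskerin, the pseudouridine synthase of the box H/ACA snoRNPs. It measured 10.60, 10.63 and 10.72 in Zbtb46- CDPs, 9.11, 9.55 and 9.53 in Zbtb46+ CDPs and 9.74, 9.73 and 9.73 in Pre-CD8 DCs, with narrow spread in the outer groups and replicate 1 lowest among the Zbtb46+ arrays. Dkc1 fell by 1.25 on the log2 scale (SE 0.113, adjusted p = 0.00021) and was lower over the span by 1.89-fold, and its second difference was 0.33 (SE 0.113, adjusted p = 0.131). Its partners Gar1 and Nhp2 fell by 0.69 and 0.75. Nat10, the acetyltransferase of small subunit RNA, fell by 1.13 on the log2 scale (SE 0.0878, adjusted p = 9.68e-05). Nolc1, a chaperone of snoRNPs, measured 10.62, 10.41 and 10.44 in Zbtb46- CDPs, 9.91, 9.49 and 9.13 in Zbtb46+ CDPs and 9.57, 9.34 and 9.49 in Pre-CD8 DCs. It fell by 0.98 on the log2 scale (SE 0.173, adjusted p = 0.00581) and differed by -0.04 at the second step, a value whose sign changed with array weights and without Zbtb46+ replicate 1 or Pre-CD8 replicate 2.

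The nucleolar chaperones showed the smallest role median, -0.67. Ncl (nucleolin), an abundant RNA-binding protein of the nucleolus, measured 11.33, 11.47 and 11.63 in Zbtb46- CDPs, 10.07, 10.88 and 11.07 in Zbtb46+ CDPs and 11.09, 10.77 and 11.07 in Pre-CD8 DCs. Zbtb46+ replicate 1 was the lowest of the 9 arrays by far, and the other 2 Zbtb46+ arrays were near the Pre-CD8 arrays. Ncl fell by 0.80 on the log2 scale (SE 0.229, adjusted p = 0.0478), but the call was lost after quantile or median scaling and in 7 of the 9 fits that left out an array, those without any Zbtb46- or Pre-CD8 array and without Zbtb46+ replicate 2, with an adjusted p of up to 0.149. Npm1 (nucleophosmin), a chaperone that binds ribosomal proteins, fell by 0.53 on the log2 scale (SE 0.119, adjusted p = 0.0172), and without Zbtb46- replicate 3 its adjusted p was 0.0661. Neither gene was called at the second step or over the span.

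Among genes of the small subunit processome the falls ranged widely. Rcl1, a processome factor related to RNA cyclases, measured 7.87, 7.65 and 7.84 in Zbtb46- CDPs, 6.74, 6.43 and 6.55 in Zbtb46+ CDPs and 6.95, 6.89 and 7.0 in Pre-CD8 DCs. Its groups did not overlap, and it fell by 1.22 on the log2 scale (SE 0.0965, adjusted p = 0.000107). The Zbtb46+ mean of 6.57 is below the median of all genes, 6.96, and was not shown to be above background, so the fall may be understated. At the second step Rcl1 differed by 0.37 (SE 0.0965, adjusted p = 0.0545) and was called after quantile normalization. Utp20, a large scaffold protein, fell by 1.16 on the log2 scale (SE 0.0989, adjusted p = 0.000157). Heatr1, which links the processome to Pol I transcription, measured 9.09, 9.13 and 9.15 in Zbtb46- CDPs, 8.35, 8.03 and 8.30 in Zbtb46+ CDPs and 8.18, 8.02 and 8.26 in Pre-CD8 DCs. It fell by 0.90 on the log2 scale (SE 0.1, adjusted p = 0.000572), and its Pre-CD8 arrays overlapped the Zbtb46+ arrays, with -0.07 at the second step and -0.97 over the span.

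Wdr43 and Wdr75 belong to the same early processome subcomplex as Heatr1. Wdr43 measured 9.94, 9.81 and 9.91 in Zbtb46- CDPs, 9.16, 9.10 and 8.93 in Zbtb46+ CDPs and 9.46, 9.46 and 9.41 in Pre-CD8 DCs. It fell by 0.82 on the log2 scale (SE 0.0791, adjusted p = 0.000279) and rose by 0.38 (SE 0.0791, adjusted p = 0.0219) at the second step. For Wdr75 the values were 9.33, 9.20 and 9.36 in Zbtb46- CDPs, 8.18, 8.24 and 8.40 in Zbtb46+ CDPs and 8.75, 8.66 and 8.79 in Pre-CD8 DCs. Wdr75 fell by 1.02 on the log2 scale (SE 0.0835, adjusted p = 0.000129) and rose by 0.46 (SE 0.0835, adjusted p = 0.012). In both genes the 3 groups were fully separated, and neither rise was called after quantile normalization. The rise of Wdr43 was also lost without Zbtb46+ replicate 2 or 3 or any Pre-CD8 array (adjusted p up to 0.0883), and that of Wdr75 without Pre-CD8 replicate 1 or 3 (adjusted p up to 0.0577).

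Wdr3, Wdr36 and Utp18 encode proteins of another processome subcomplex and did not share a pattern. Wdr3 fell by 0.66 on the log2 scale (SE 0.0942, adjusted p = 0.00209), rose by 0.63 (SE 0.0942, adjusted p = 0.00473) at the second step and ended at -0.02 over the span. Wdr36 fell by 0.88 on the log2 scale (SE 0.157, adjusted p = 0.00595), differed by 0.09 at the second step and was lower over the span, at -0.79. Utp18 measured 9.17, 8.87 and 9.08 in Zbtb46- CDPs, 9.22, 8.70 and 8.87 in Zbtb46+ CDPs and 9.06, 9.31 and 9.09 in Pre-CD8 DCs, and the 3 groups overlapped. Its differences were -0.11 (SE 0.14, adjusted p = 0.634) at the first step, 0.22 at the second and 0.12 over the span, and the first turned to 0.06 after quantile normalization. Utp18 was thus the member with the smallest first difference.

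Nop14 and Noc4l encode partners in the processome. Nop14 measured 9.83, 9.58 and 9.56 in Zbtb46- CDPs, 9.02, 8.60 and 8.58 in Zbtb46+ CDPs and 9.34, 9.34 and 9.44 in Pre-CD8 DCs. It fell by 0.92 on the log2 scale (SE 0.129, adjusted p = 0.00186) and rose by 0.64 (SE 0.129, adjusted p = 0.0196) at the second step, with no overlap between neighbouring groups. The rise was lost without Zbtb46+ replicate 2 or 3 or any Pre-CD8 array, with an adjusted p of up to 0.0867. Noc4l measured 9.26, 8.83 and 8.99 in Zbtb46- CDPs, 8.77, 7.82 and 8.37 in Zbtb46+ CDPs and 8.44, 8.17 and 8.39 in Pre-CD8 DCs, with a wide range among the Zbtb46+ arrays. Its first difference was -0.71 (SE 0.218, adjusted p = 0.0612), and with the replicate number as a block it was called at an adjusted p of 0.00908, but not after quantile normalization, at 0.0613.

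Utp15, of the same subcomplex as Wdr43, measured 8.64, 8.31 and 8.51 in Zbtb46- CDPs, 8.09, 7.36 and 8.26 in Zbtb46+ CDPs and 8.14, 7.81 and 8.29 in Pre-CD8 DCs. Zbtb46+ replicate 2 was the lowest array, and the first difference was -0.58 (SE 0.222, adjusted p = 0.119). It was called with the replicate block, at an adjusted p of 0.0201, but not after quantile normalization, at 0.211. Ddx10, an RNA helicase, measured 7.91, 8.02 and 8.26 in Zbtb46- CDPs, 7.04, 7.32 and 7.72 in Zbtb46+ CDPs and 7.80, 7.69 and 7.93 in Pre-CD8 DCs. It fell by 0.70 on the log2 scale (SE 0.165, adjusted p = 0.0215), and the call was lost after quantile normalization and without Zbtb46- replicate 2 or 3 or Zbtb46+ replicate 2 (adjusted p up to 0.0862). Rrp9, a protein of the U3 snoRNP, fell by 0.77 on the log2 scale (SE 0.185, adjusted p = 0.0237), a call lost without Zbtb46- replicate 1 or 3 or Zbtb46+ replicate 2 or 3 (adjusted p up to 0.0899).

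The later 40S factors had a median of -1.02 at the first step. Tsr1, a GTPase-like protein of late 40S precursors, measured 9.13, 8.72 and 8.96 in Zbtb46- CDPs, 7.71, 7.06 and 7.25 in Zbtb46+ CDPs and 8.28, 7.67 and 8.20 in Pre-CD8 DCs. Its Zbtb46+ values lay below all others except that Zbtb46+ replicate 1 and Pre-CD8 replicate 2 nearly coincided. Tsr1 fell by 1.60 on the log2 scale (SE 0.205, adjusted p = 0.0012), and its second difference, although among the largest, was 0.71 (SE 0.205, adjusted p = 0.0811). Bysl, a factor that accompanies 40S precursors to the cytoplasm, measured 9.41, 9.06 and 9.01 in Zbtb46- CDPs, 8.33, 7.72 and 7.79 in Zbtb46+ CDPs and 8.41, 8.37 and 8.42 in Pre-CD8 DCs. Bysl fell by 1.22 on the log2 scale (SE 0.165, adjusted p = 0.00157) and was lower over the span by 1.7-fold.

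Nob1, the nuclease that makes the final cut of small subunit RNA, measured 9.82, 9.63 and 9.75 in Zbtb46- CDPs, 9.03, 8.36 and 8.76 in Zbtb46+ CDPs and 9.43, 9.44 and 9.46 in Pre-CD8 DCs. The groups were fully separated. Nob1 fell by 1.02 on the log2 scale (SE 0.146, adjusted p = 0.00205) and rose by 0.73 (SE 0.146, adjusted p = 0.0192) at the second step, a rise lost without Zbtb46+ replicate 3 or any Pre-CD8 array (adjusted p up to 0.0779). Ltv1, a 40S assembly factor, and Rrp12, a factor in export of ribosomal subunits, fell by 0.71 and 0.76.

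Gnl3 led the 60S factors. It measured 9.47, 9.60 and 9.96 in Zbtb46- CDPs, 7.84, 8.09 and 8.29 in Zbtb46+ CDPs and 8.61, 8.73 and 8.67 in Pre-CD8 DCs, and the 3 groups did not overlap. Gnl3 fell by 1.60 on the log2 scale (SE 0.143, adjusted p = 0.000204), a 3.04-fold change, and rose by 0.60 (SE 0.143, adjusted p = 0.0414) at the second step, ending 2.01-fold lower over the span. The rise was lost after quantile normalization and in 6 of the 9 fits that left out an array, those without Zbtb46- replicate 2, Zbtb46+ replicate 1 or 2 or any Pre-CD8 array, with an adjusted p of up to 0.135. Its relative Gnl2, another nucleolar GTPase, fell by 0.94.

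Rrs1, which helps bring the 5S particle into the large subunit, measured 9.84, 9.58 and 9.75 in Zbtb46- CDPs, 8.46, 8.56 and 8.35 in Zbtb46+ CDPs and 8.83, 9.17 and 9.08 in Pre-CD8 DCs. It fell by 1.27 on the log2 scale (SE 0.109, adjusted p = 0.000158) and rose by 0.57 (SE 0.109, adjusted p = 0.0152) at the second step, with full separation of the groups. The rise was lost without Zbtb46+ replicate 3 or Pre-CD8 replicate 2 or 3 (adjusted p up to 0.0686). Ftsj3, a ribosomal RNA methyltransferase, measured 9.19, 8.97 and 9.04 in Zbtb46- CDPs, 8.04, 7.73 and 7.85 in Zbtb46+ CDPs and 8.15, 7.84 and 8.20 in Pre-CD8 DCs. It fell by 1.19 on the log2 scale (SE 0.12, adjusted p = 0.000344) and was 2.01-fold lower over the span. Nop2, another methyltransferase, fell by 1.09 on the log2 scale (SE 0.176, adjusted p = 0.00371).

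Pes1, Bop1 and Wdr12 form the PeBoW complex, which is needed to process large subunit RNA. Pes1 measured 10.87, 10.67 and 10.81 in Zbtb46- CDPs, 9.93, 9.77 and 9.83 in Zbtb46+ CDPs and 10.25, 10.12 and 10.28 in Pre-CD8 DCs. It fell by 0.94 on the log2 scale (SE 0.0826, adjusted p = 0.000184) and rose by 0.37 (SE 0.0826, adjusted p = 0.0291) at the second step, and the rise was lost after quantile normalization and without Zbtb46- replicate 3, Zbtb46+ replicate 2 or 3 or Pre-CD8 replicate 1 or 3 (adjusted p up to 0.114). Wdr12 fell by 1.07 on the log2 scale (SE 0.111, adjusted p = 0.000407). Its second probe set gave -0.90. Bop1 measured 10.18, 10.04 and 9.99 in Zbtb46- CDPs, 10.09, 9.28 and 9.47 in Zbtb46+ CDPs and 9.84, 9.66 and 9.69 in Pre-CD8 DCs. Zbtb46+ replicate 1 lay among the Zbtb46- arrays, and the first difference was -0.46 (SE 0.181, adjusted p = 0.131), called only where that array was left out or weighted.

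Brix1 and Ebna1bp2 act in early 60S assembly and were near their Zbtb46- levels again in Pre-CD8 DCs. Brix1 measured 9.42, 9.22 and 9.59 in Zbtb46- CDPs, 7.69, 8.52 and 8.73 in Zbtb46+ CDPs and 9.16, 9.53 and 9.16 in Pre-CD8 DCs. The Pre-CD8 arrays were within the range of Zbtb46- CDPs or near it, and Zbtb46+ replicate 1 lay far below the other 2. Brix1 fell by 1.10 on the log2 scale (SE 0.245, adjusted p = 0.0172), a call lost after quantile normalization and without Zbtb46- replicate 1 or 3 (adjusted p up to 0.0698). Its second difference, the largest of the module, was 0.97 (SE 0.245, adjusted p = 0.05), just past the threshold of 0.05 and so not called. It was called after median scaling, with the filter on dim genes, with the mean of probe sets, with the replicate block, with array weights and without Zbtb46+ replicate 1 or 3. Ebna1bp2 measured 9.77, 9.55 and 9.75 in Zbtb46- CDPs, 8.46, 9.02 and 9.03 in Zbtb46+ CDPs and 9.50, 9.63 and 9.47 in Pre-CD8 DCs. It fell by 0.85 on the log2 scale (SE 0.149, adjusted p = 0.0055), rose by 0.70 (SE 0.149, adjusted p = 0.0248) and differed by -0.15 over the span. The rise was lost after quantile normalization and without any Pre-CD8 array (adjusted p up to 0.0952).

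The remaining 60S factors fell at the first step with mixed precision. Noc3l, a partner in early 60S export, fell by 1.01 to a dim mean of 6.82. Nip7 fell by 0.82 on the log2 scale (SE 0.176, adjusted p = 0.0141), and the call was lost without Zbtb46- replicate 1 or 3 (adjusted p up to 0.0556). Nop16 measured 10.97, 10.94 and 10.95 in Zbtb46- CDPs, 10.81, 10.48 and 10.35 in Zbtb46+ CDPs and 10.73, 10.85 and 10.80 in Pre-CD8 DCs. It fell by 0.41 on the log2 scale (SE 0.11, adjusted p = 0.0392), the smallest fall called, and kept its call in 1 of the 9 fits that left out an array, the one without Zbtb46+ replicate 1. Rrp1b measured 9.49, 9.47 and 9.40 in Zbtb46- CDPs, 9.15, 8.22 and 8.08 in Zbtb46+ CDPs and 8.15, 8.57 and 8.37 in Pre-CD8 DCs. Zbtb46+ replicate 1 stood near the Zbtb46- arrays and the other 2 near the Pre-CD8 arrays. Rrp1b fell by 0.97 on the log2 scale (SE 0.246, adjusted p = 0.0303), a call lost without any Zbtb46- array, Zbtb46+ replicate 2 or 3 or Pre-CD8 replicate 3 (adjusted p up to 0.107). Over the span it was lower at -1.09, the largest span fall of the module. That span call was lost without Zbtb46- replicate 1 or 2 or Pre-CD8 replicate 1 or 3.

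**Figure D3:**
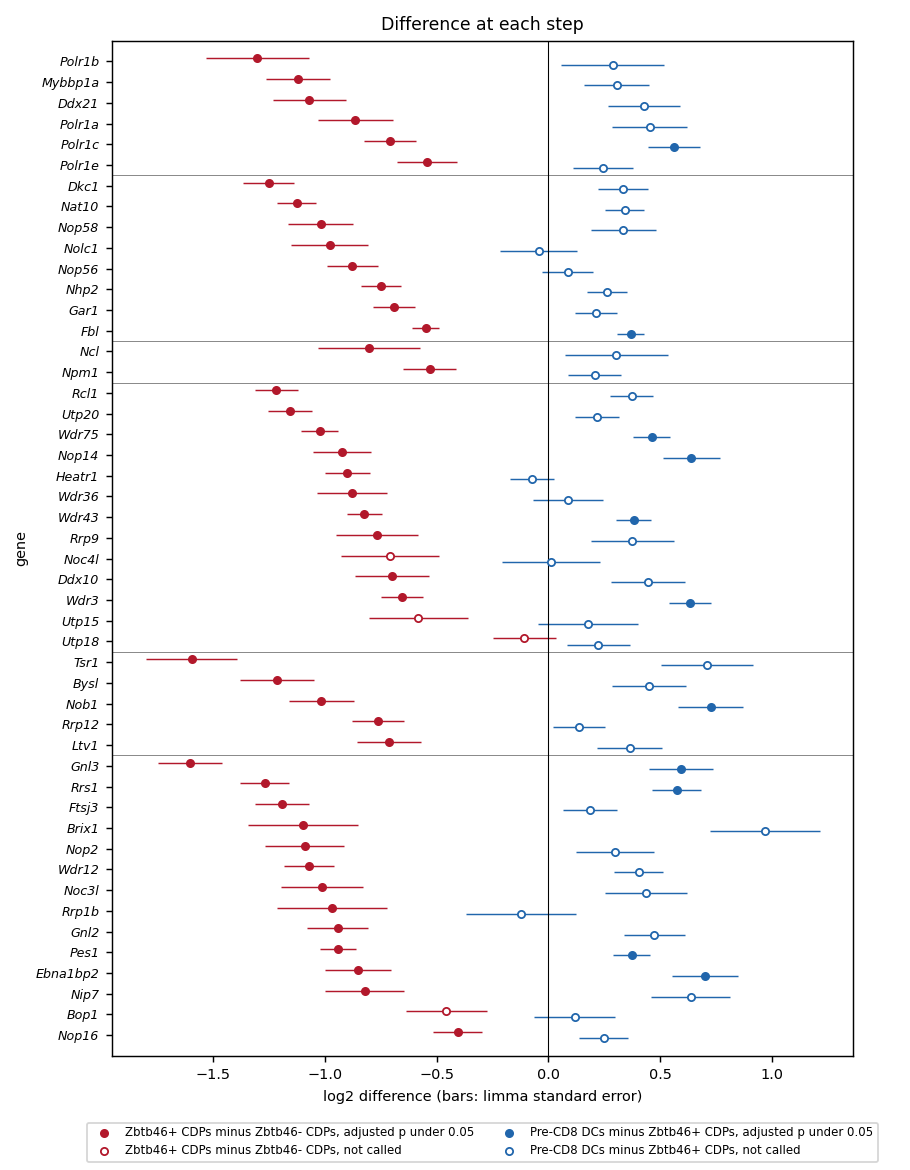
Log2 difference of each member (rows, in the role order of the heat map) at the first step (red) and the second (blue), with limma standard errors as bars; filled points passed adjusted p under 0.05. All 48 red points lie below 0 and 44 are filled, while 11 blue points are filled, all above 0.

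Second-step calls changed more with normalization than first-step calls. After quantile normalization of the 9 arrays 40 members were lower at the first step, where 7.88% of all genes were, with a median of -0.80. At the second step 6 were higher, where 3.76% of all genes were, with a median of 0.23. Of the 11 called before, 5 remained (Polr1c, Wdr3, Nop14, Nob1 and Rrs1), and Rcl1 was added. The counts were 27 over the span (9.27% of all genes) and 30 for the difference between steps (4% of all genes). The balance of all genes moved too. Calls that were higher made up 26.7% at the first step and 43.6% after quantile normalization, 71.9% and 53.4% at the second, and 82.1% and 56.4% for the difference between steps. With both arrays low in Xist left out and quantile normalization, 43, 16, 35 and 37 members were called in the 4 comparisons, where 9.84%, 7.38%, 11.4% and 6.88% of all genes were called in that direction.

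The members varied most among the Zbtb46+ arrays. The median SD of a member was 0.123 in Zbtb46- CDPs, 0.271 in Zbtb46+ CDPs and 0.097 in Pre-CD8 DCs, against 0.103, 0.153 and 0.0815 over all genes. The median member level per array was 9.56, 9.41 and 9.53 in Zbtb46- CDPs, 8.66, 8.47 and 8.45 in Zbtb46+ CDPs and 8.94, 8.99 and 9.01 in Pre-CD8 DCs, and the groups did not overlap in this median. Zbtb46+ replicate 1, the array with the most neutrophil signal, was the highest of its group in 27 members and the lowest in 16. The part of the neutrophil signal in these values was not tested.

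Myc and the proliferation gene Mki67 were read alongside. Myc measured 11.53, 11.46 and 11.54 in Zbtb46- CDPs, 10.36, 9.72 and 9.65 in Zbtb46+ CDPs and 10.76, 10.62 and 10.68 in Pre-CD8 DCs. It fell by 1.60 on the log2 scale (SE 0.165, adjusted p = 0.000388) and rose by 0.78 (SE 0.165, adjusted p = 0.0243) at the second step, and over the span it was lower at -0.82 (adjusted p = 0.00841). The rise was lost without Zbtb46+ replicate 2 or 3 or any Pre-CD8 array, with an adjusted p of up to 0.0934. Mki67 measured 12.01, 12.01 and 12.05 in Zbtb46- CDPs, 12.64, 12.71 and 12.60 in Zbtb46+ CDPs and 12.47, 12.65 and 12.50 in Pre-CD8 DCs. In contrast to the module it rose by 0.63 (SE 0.0723, adjusted p = 0.000686) at the first step, and its second difference was -0.11 (SE 0.0723, adjusted p = 0.468). The summed signal of 5 proliferation markers ran from 11378 to 12251 in Zbtb46- CDPs, from 15220 to 18055 in Zbtb46+ CDPs and from 15260 to 16317 in Pre-CD8 DCs. Of these 5 markers, 3 were called higher at the first step, where 3.85% of all genes were. The part of proliferation or of Myc in the module's values was not tested.

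**Figure D4:**
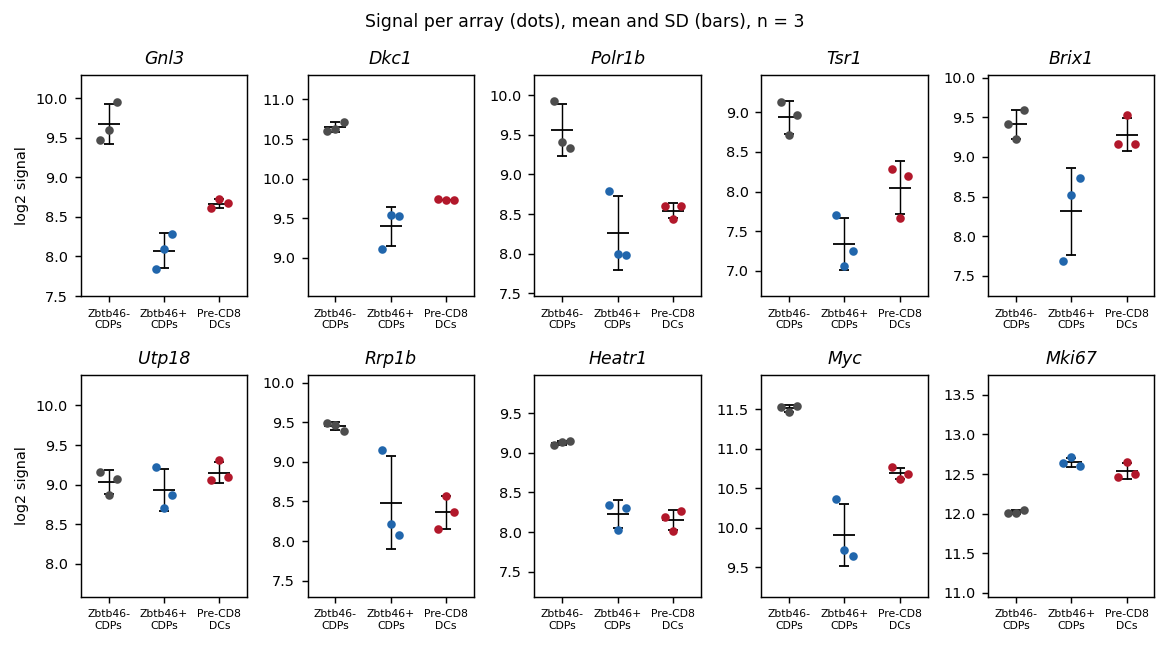
Log2 signal per array (dots, n = 3 per group) with the mean and SD (black bars) for 8 members and for Myc and Mki67; every panel spans the same log2 range. The means of Gnl3, Dkc1, Polr1b, Tsr1, Brix1 and Myc are lowest in Zbtb46+ CDPs. Of these, only Gnl3 and Myc were called higher at the second step. Utp18 overlaps across groups, Heatr1 stays low in Pre-CD8 DCs, and Mki67 is higher in both later groups.

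Promoter sequences from RefSeq (GRCm38.p6, 250 bases before to 50 after the gene start) were available for 43 of the 50 members. They were searched for CACGTG, the E-box that Myc and related factors bind, which reads the same on both strands. It was found in 8 members (18.6%), against 8.91% of 17492 protein-coding genes, 21.9% of 64 other assembly factors and 11.9% of 42 cytosolic ribosomal protein genes. The median share of G and C bases was 59.7% in members and 56.3% in protein-coding genes. In the other assembly factors it was 59.2% and in the cytosolic ribosomal protein genes 56.8%. The part of base composition in these shares was not tested. The word TATAAA, on either strand, was in 2 members (4.65%) against 14.8% of protein-coding genes. The 8 stretches of 30 bases that hold the E-box are shown so that the motif can be read in its context, with the motif in capitals.

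Tsr1 (chr11:74898092-74898121, plus strand): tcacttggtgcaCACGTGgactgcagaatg
Utp20 (chr10:88826765-88826794, minus strand): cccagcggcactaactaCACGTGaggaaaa
Mybbp1a (chr11:72441347-72441376, plus strand): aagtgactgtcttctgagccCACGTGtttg
Nop2 (chr6:125131811-125131840, plus strand): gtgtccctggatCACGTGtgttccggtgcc
Pes1 (chr11:3963965-3963994, plus strand): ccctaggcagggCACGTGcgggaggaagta
Wdr43 (chr17:71616220-71616249, plus strand): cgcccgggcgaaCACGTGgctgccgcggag
Ltv1 (chr10:13193092-13193121, minus strand): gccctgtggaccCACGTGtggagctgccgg
Utp18 (chr11:93885769-93885798, minus strand): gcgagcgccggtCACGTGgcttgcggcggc

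Tsr1 was picked by rule, as a member with the motif among the 8 largest first falls, and the other 7 stretches were chosen after their values were seen. The motif starts 25 bases after the gene start in Tsr1, 60 before it in Nop2 and 20 before it in Utp18. Tsr1 fell by 1.60 at the first step, Utp20 by 1.16, Mybbp1a by 1.12, Nop2 by 1.09, Pes1 by 0.94, Wdr43 by 0.82 and Ltv1 by 0.71 on the log2 scale. Utp18 holds the same word and differed by -0.11, which was not called. Among the 8 largest first falls, Tsr1 was the only member found with the word. For Gnl3, Polr1b, Rrs1, Dkc1, Rcl1, Bysl and Ftsj3 the window lacked the word or was not held. The 250 bases before the start of Nop2 and Utp18 are given because both carry the motif upstream, and one fell while the other was not called.

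Nop2 (chr6:125131633-125131882, plus strand): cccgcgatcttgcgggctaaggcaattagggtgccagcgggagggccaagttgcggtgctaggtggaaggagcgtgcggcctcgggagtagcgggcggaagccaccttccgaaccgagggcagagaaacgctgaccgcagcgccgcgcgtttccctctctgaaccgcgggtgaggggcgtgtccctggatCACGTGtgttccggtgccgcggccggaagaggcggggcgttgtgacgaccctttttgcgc
Utp18 (chr11:93885767-93886016, minus strand): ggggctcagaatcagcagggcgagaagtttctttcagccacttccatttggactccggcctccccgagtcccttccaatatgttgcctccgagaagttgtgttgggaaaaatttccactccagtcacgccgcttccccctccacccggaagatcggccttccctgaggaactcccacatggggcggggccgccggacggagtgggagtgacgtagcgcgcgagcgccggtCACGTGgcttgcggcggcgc

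A match of letters is a description of the sequence, and binding was not measured here.

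Other genes of ribosome production were read from lists that share no gene with the module. Of all genes, 10.6% were called lower at the first step and 4.76% higher at the second. Over the span 9.23% were lower and 6.43% higher. Among 36 other small subunit factors 25 fell at the first step and 10 rose at the second, with medians of -0.58 and 0.35. Among 41 other large subunit factors 26 fell and 11 rose, with medians of -0.63 and 0.30. Over the span 7 of the small subunit factors were lower, led by the processome gene Utp4 (-1.25), with Nol10 (-0.79), the kinase gene Riok2 (-0.72) and Pwp2 (-0.69). Of the large subunit factors 15 were lower, among them Rsl24d1 (-0.92), Wdr18 (-0.90) and the giant ATPase gene Mdn1 (-0.84), and 2 were higher. One of these, Sdad1, fell by 0.72 at the first step and rose by 1.66 at the second, ending 1.92-fold above Zbtb46- CDPs.

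The exosome and RNase MRP, which trim and cut ribosomal RNA precursors, had 10 of 23 genes lower at the first step, where 10.6% of all genes were. Their medians were -0.35 there and 0.19 at the second. Over the span 7 were lower, where 9.23% of all genes were, led by Rpp40 (-0.83), Exosc2 (-0.64), Exosc5 (-0.61) and Rpp14 (-0.51).

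Pol I genes outside the module had smaller median differences. The members were chosen with earlier results of these data known, so the contrast does not test whether the module stands apart. Of 12 other subunits and factors, 3 fell at the first step and 1 rose at the second, with medians of -0.19 and 0.20. The shares of all genes were 10.6% lower at the first step and 4.76% higher at the second. For the span they were 9.23% lower and 6.43% higher. Rrn3, the initiation factor that links Pol I to its promoter, fell by 0.62 on the log2 scale (SE 0.0793, adjusted p = 0.00117). Ubtf, which binds ribosomal DNA, differed by -0.09 (SE 0.11, adjusted p = 0.615). Over the span Polr1d, a subunit shared with Pol III, was higher at 0.47 and Znrd1, a small Pol I subunit, at 0.45, while Rrn3 was lower at -0.46. For Pol III, 5 of 10 subunit genes fell at the first step and 3 rose at the second, and Polr3g (-0.48), Polr3gl (-0.48) and Polr3e (-0.36) were lower over the span. For Pol II, 4 of 8 fell and 1 rose, and Polr2b (-0.53) was lower over the span. Of 5 subunits shared among polymerases 2 fell and 1 rose.

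The protein parts of the ribosome had smaller median differences than the module. Of all genes, 10.6% were called lower and 3.85% higher at the first step, and 4.76% higher at the second. Of 53 cytosolic ribosomal protein genes 28 fell at the first step and 5 rose at the second, with medians of -0.30 and 0.20, and 3 were lower over the span, Rpl12 (-0.75), Rpl34 (-0.30) and Rps2 (-0.22). That count of 3 is a smaller share than the 9.23% of all genes called lower over the span. Of 77 mitochondrial ribosomal protein genes 38 fell and 1 rose at the first step, and 12 rose at the second, with medians of -0.45 and 0.29. Mrpl52 was the one that rose, at 0.62, and it rose again by 0.70, so that it ended 2.5-fold above Zbtb46- CDPs. Mrpl23, Mrpl47 and Mrpl16 were lower over the span, at -0.61, -0.53 and -0.47. Whether these lists differ from the module was not tested, and the members were chosen with earlier results of these data known.

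**Figure D5:**
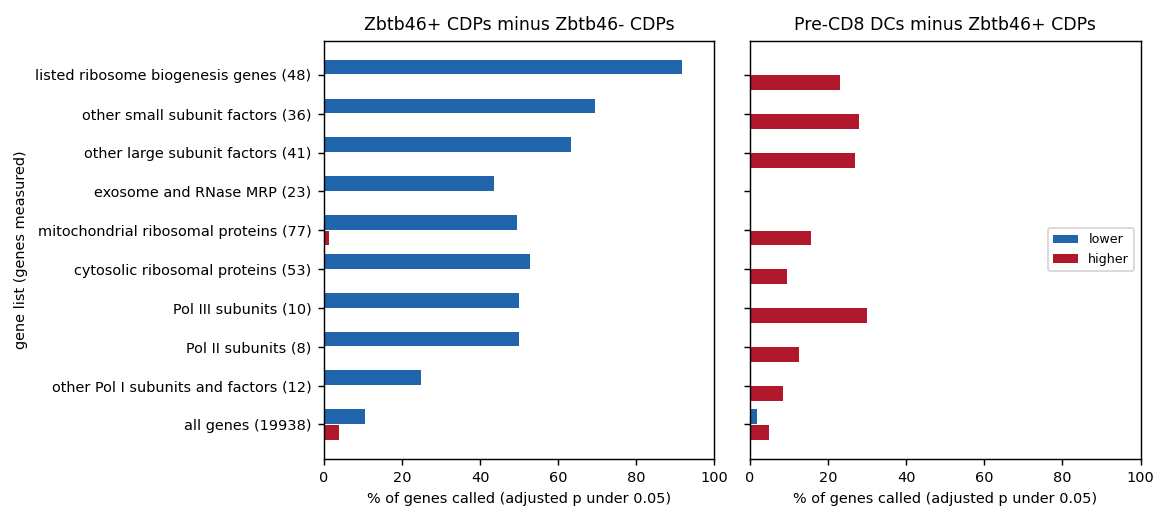
Percent of measured genes in each list (rows, with the number of genes) called lower (blue) or higher (red) at the first step (left) and the second (right), limma adjusted p under 0.05. The module has the longest blue bar at the first step, 44 of 48, followed by the other small subunit factors, 25 of 36, and the other large subunit factors, 26 of 41, against 10.6% of all genes. The module's genes were listed with earlier results of these data known.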

How the data were processed

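Transcript levels were measured on 9 Affymetrix arrays, 3 per sorted population with a kit for very small RNA amounts, per the labels. Per the submitters' processing notes, the authors summarised the arrays with RMA in Affymetrix Expression Console, and versions and settings are not given in the sources used here. The deposited values are probe set intensities on a linear scale, from 7.45 to 20455.6, and log2 was taken with no further scaling. RMA, quantile normalization included, assumes similar distributions between arrays, so a shift shared by most genes would not be seen. The median signal of an array lay between 110.2 and 118.0, and its 75th percentile between 314.7 and 393.7. The arrays thus differed more in their brighter signals than at the median. Precision is limited by having 3 arrays a group.

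Of 28853 probe sets, 21789 had 1 gene symbol in the platform annotation, 1621 had several, and 5443 were not in that table. For the 999 genes with several probe sets the one with the highest mean was used, which gave 19938 genes. Group means were fitted to all 9 arrays with limma 3.58.1 (lmFit, eBayes) in R 4.3.3, with Benjamini-Hochberg adjustment over all genes and calls at an adjusted p under 0.05. The script was tested on simulated data. Summaries and plots used Python 3.11.15, pandas 2.3.3 and matplotlib 3.10.9.

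Genes are named by rule: the 8 largest and 3 smallest differences at the first step, the 5 largest and 5 smallest at the second, members not called at the first step or with calls that change under quantile normalization, up to 4 called genes per other list by the span, and Myc and Mki67. The other members, Xist and Ubtf were named outside it, to account for the module and for arrays that stand apart. The members and lists were chosen with earlier results of these data known. Same-numbered arrays of both CDP groups had correlated residuals (0.51, 0.42 and 0.36), and so met the pairing rule that every pair exceeds 0.1. Those with Pre-CD8 DCs (-0.03 to 0.17) did not. However, replicate 1 stood apart in both CDP groups, which by itself can make the residuals of replicates 2 and 3 correlate. Zbtb46- replicate 3 also correlated more with Zbtb46+ replicate 2 (0.38) than with replicate 3. The rule therefore cannot show that the numbers pair these groups, and the main fit did not pair arrays. The replicate block was an alternative, fitted to all arrays and so also to the Pre-CD8 arrays. Other alternatives were quantile and median scaling, a filter dropping the 30% dimmest genes, the mean of probe sets and an intensity trend. Array weights, fits of 2 groups, an adjusted p under 0.01 and leaving out each array were also run. Leaving out both arrays low in Xist was added after seeing the data.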

Additional observations from a re-analysis of the deposited data

How the results depend on the processing

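Directions of the module's counts held under every alternative run: 0 members were higher at the first step and 0 lower at the second in the 9 fits that left out an array. First step: the median was -0.80 after quantile normalization and -0.76 with both arrays low in Xist left out as well, and at an adjusted p under 0.01 the other 40S and 60S factors fell from 51 to 32 called lower. Leaving out 1 array gave medians of -0.95 to -0.87 and 36 to 63 of those factors. Second step: 11 members and 21 other 40S and 60S factors higher became 6 and 11 after quantile normalization, 25 and 36 with array weights (10.1% of all genes), 6 and 13 with only the 2 groups fitted (3.01%), 28 and 42 without the arrays low in Xist, and 2 and 7 at an adjusted p under 0.01 (1.88%). The median was 0.23 after quantile normalization with or without those arrays. Leaving out 1 array gave 3 to 23 members, 8 to 34 other factors and medians of 0.30 to 0.37. Over the span array weights gave 44 lower (18.7% of all genes), and leaving out 1 array 21 to 34 (6.63% and 12.8%, without replicate 1 of Zbtb46- and of Zbtb46+ CDPs), with medians of -0.62 to -0.52. For the difference between steps the median was 1.08 after quantile normalization and 1.0 without the arrays low in Xist as well, 20 members passed at an adjusted p under 0.01 (1.76% of all genes), and leaving out 1 array gave 22 to 43 with medians of 1.24 to 1.37. The replicate block gave 46, 15, 30 and 40 members in the 4 comparisons (12.3%, 5%, 10.3% and 6.68% of all genes). That block also matched the Pre-CD8 arrays by number, for which the residuals gave no ground. The causes were not tested.

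No difference that changed sign was called in either fit, but Nop58 (0.34) and Ncl (0.30) had second differences close to the module median before they did. At the first step Utp18 gave 0.060 after quantile normalization and -0.25 to 0.0050 with 1 array left out. Second-step ranges with 1 array left out crossed 0 for Nop56 (-0.036 to 0.16), Noc4l (-0.24 to 0.24), Nolc1 (-0.23 to 0.16), Rrp1b (-0.32 to 0.21), Utp15 (-0.092 to 0.35), Wdr36 (-0.11 to 0.21) and Bop1 (-0.048 to 0.36). After quantile normalization Nop56 gave -0.013 and Noc4l -0.088, and with array weights Nolc1 gave 0.16 and Rrp1b 0.055. Without the arrays low in Xist Nop56 gave -0.036, Nolc1 0.16 and Rrp1b 0.21, and with quantile normalization as well Nop56 gave -0.19, Nop58 -0.020, Nolc1 0.00086, Ncl -0.15, Npm1 -0.036 and Rrp1b 0.044. Over the span Wdr3 gave 0.039 after quantile normalization, 0.017 after median scaling, -0.093 to 0.021 with 1 array left out, 0.021 without the arrays low in Xist and 0.015 with quantile normalization as well. Low signal limits Rcl1 and Noc3l, whose Zbtb46+ means were below the median of all genes.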
